A study of Arabidopsis thaliana with 6 samples.

Results

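AT4G15680, AT4G15690 and AT2G47880 encode CC-type glutaredoxins, and all 3 had lower signals in the leaves of trisomic plants than in diploid leaves. They are 3 of 13 CC-type genes that were expressed, of 17 that had a probe set listed for a single locus and of 21 loci counted in the class, in a data set of 7244 expressed genes. The 3 genes were picked by name with their signal in each karyotype already known, so their levels and ratios are a description and no test is given for them. AT4G15680 and AT4G15690 lie in a tandem run on Chr.4 and had 2 copies in every plant, whereas AT2G47880 lies on the part of Chr.2 that had 3 copies in one of the trisomics.

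RNA from rosette leaves was hybridised to 6 Affymetrix ATH1 arrays, 2 for each karyotype. Tertiary trisomy 2 (AAa) carries the aur2-1 T-DNA allele on an extra translocation chromosome, made of Chr.2 up to AUR2 and the end of Chr.3 before AT3G20040, so genes of Chr.2 beyond AUR2 have 2 copies. Trisomy 2 (AAA) has a full additional Chr.2, and the wild type (WT) is diploid Col-0. Plants of all 3 groups were 26 days old and were kept at 22 °C with 16 h of light and 8 h of dark, and each array measured a pool of 21 to 35 plants. Both trisomics descend from the same aur2-1 line. The sources used here do not say whether each array had its own planting, so p-values measure only the spread between these arrays. For each gene that spread was pooled over the groups and drawn towards the trend over all expressed genes. With 3 residual and 13.5 prior degrees of freedom, SE and p-values rest more on that trend than on the gene's own arrays. Comparisons with WT also share the WT arrays.

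Glutaredoxins are small thiol oxidoreductases that use glutathione to reduce or modify cysteines in other proteins. Land plants have, beside the widespread CPYC and CGFS classes, a CC class named after the paired cysteines of its active site. Several members of this class bind TGA transcription factors. Some act in flower and anther development, others in the cross-talk of salicylic acid with jasmonate, and others respond to nitrate or travel from the shoot as part of nitrogen signalling. The names of the 3 genes are not given in the annotation used here, so they are called by their loci and no particular role is assigned to them.

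Median signal ranged from 155 to 171 intensity units over the 6 arrays. Signals below are centred on the expressed genes that had 2 copies in every group, and ratios are on the log2 scale with the SE of the fit. Among the controls for RNA integrity, ubiquitin was lower on both AAa arrays than on all others. For actin and GAPDH the AAa arrays overlapped those of the other groups. For ubiquitin, 3' over 5' signal was, as a log2 ratio, 1.14 and 1.35 in AAa, 1.68 and 1.56 in AAA, and 1.64 and 1.86 in WT. Means for actin were 3.19 in AAa, 3.52 in AAA and 3.71 in WT. Its arrays were at 2.86 and 3.52 in AAa, 3.30 and 3.74 in AAA, and 3.51 and 3.90 in WT. Means for GAPDH were 0.27 in AAa, 0.29 in AAA and 0.06 in WT. The GAPDH arrays were at 0.478 and 0.066 in AAa, 0.255 and 0.318 in AAA, and 0.042 and 0.076 in WT. For ubiquitin and actin the means ran in the same order of groups as those of the 3 genes. The part of RNA quality in the results was not tested. The labelled tissue could be checked with 1 of 8 mesophyll genes only. This was RCA, the Rubisco activase of the chloroplast stroma. It lies on Chr.2 beyond AUR2, with 2 copies in AAa, 3 in AAA and 2 in WT. Tissue and copy number therefore cannot be told apart in its comparisons with AAA. AAa and WT have the same copy number of RCA, and whether their tissue differed was not tested. RCA had signals of 27865 and 32457 in AAa, 40171 and 49627 in AAA, and 45121 and 41559 in WT. In AAa the RCA signal fell by 0.53 ± 0.14 on the log2 scale against WT (limma, adjusted p = 0.0129), a call that was lost without AAa replicate 1 (adjusted p = 0.12), without WT replicate 1 (0.0778), without the intensity trend (0.0565) and without the filter on dim genes (0.219). Against AAA it fell by 0.57 ± 0.14 in AAa (adjusted p = 0.00668), which was lost without AAA replicate 2 (0.109) or AAa replicate 1 (0.077), with quantile normalization (0.2) and without the filter (0.178). No vascular marker (0 of 7) and no flower marker (0 of 6) had a listed probe set. In whole leaves, fewer cells that make a transcript and less of it per cell cannot be told apart.

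Of the 3 genes, AT4G15680 showed the widest separation of the karyotypes. Its signal was 142 and 164 in AAa, 337 and 251 in AAA, and 456 and 718 in WT. No array of one group overlapped another, and the order from low to high was AAa, AAA and WT. Group means were 153 ± 15.3 in AAa, 294 ± 60.3 in AAA and 587 ± 185 in WT (SD, n = 2 each). The signal was thus 3.76-fold lower in AAa and 1.97-fold lower in AAA than in WT, or −1.91 and −0.98 on the log2 scale (SE 0.21 each). AAa lay below AAA by a log2 ratio of −0.93 ± 0.21. The WT arrays were the least alike, but the lower of them was still above both AAA arrays.

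AT4G15690, the adjacent glutaredoxin locus, had the same order with smaller gaps. Its signal was 86.3 and 102 in AAa, 201 and 115 in AAA, and 284 and 274 in WT. The group means were 94.2 ± 11.1 in AAa, 158 ± 60.9 in AAA and 279 ± 7.09 in WT (SD, n = 2 each). Here the WT arrays were close together and the AAA arrays differed by 0.81 on the log2 scale, so that AAA replicate 2 came near the higher AAa array. The log2 ratio to WT was −1.57 ± 0.24 in AAa, which is 2.97-fold lower, and −0.87 ± 0.24 in AAA, which is 1.83-fold lower. AAa against AAA gave −0.70 ± 0.24, and this value rested on which AAA array was used: it was −0.29 without AAA replicate 1 and −1.10 without AAA replicate 2. In the same way the ratio of AAA to WT was −1.28 without AAA replicate 1 and −0.47 without AAA replicate 2.

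AT2G47880 was lower in both trisomics than in WT, although its copy number differed between them. Its signal was 144 and 245 in AAa with 2 copies, 189 and 244 in AAA with 3 copies, and 381 and 356 in WT with 2 copies. All 4 trisomic arrays were below both WT arrays, while those of AAa and AAA overlapped. Means were 194 ± 72.1 in AAa, 216 ± 38.8 in AAA and 368 ± 18.0 in WT (SD, n = 2 each). The log2 ratio to WT was −0.97 ± 0.22 in AAa and −0.78 ± 0.22 in AAA, which are 1.96-fold and 1.72-fold lower. AAa and AAA differed by −0.19 ± 0.22, less than their spread, and the sign turned without AAa replicate 1 (0.19). The ratio of AAa to WT also moved with that array and was −0.59 without it and −1.36 without AAa replicate 2. A second locus, AT2G47885, follows AT2G47880 by number, and whether the probe set separates their transcripts was not tested.

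**Figure D1:**
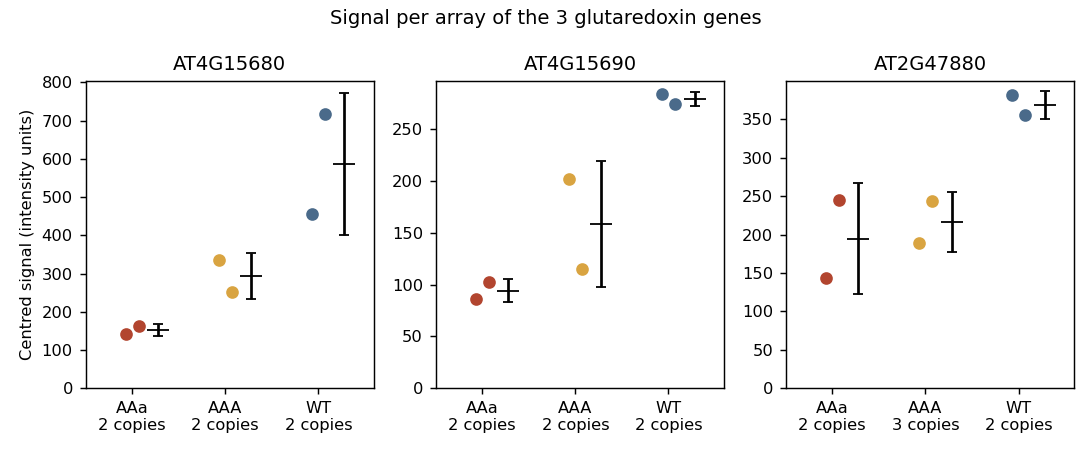
Centred signal (intensity units, y axis from 0) of the 3 genes on each array of AAa, AAA and WT, with copy number under each group; coloured points are arrays, and black bars are group means with SD (n = 2). Points of different karyotypes do not overlap for AT4G15680 and AT4G15690, although the lower AAA point of AT4G15690 (115) lies near the higher AAa point (102). The AAa points of AT2G47880 (144 and 245) lie on both sides of the AAA points.

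Among all 7244 expressed genes, ordered by log2 ratio from the lowest, AT4G15680 was number 6, AT4G15690 number 8 and AT2G47880 number 52 for AAa against WT. For AAA against WT they were numbers 36, 50 and 79. Their place for AAa against AAA was 133, 355 and 2091. Of all expressed genes, 24.4% had both AAa arrays below both WT arrays, 21.5% had both AAA arrays below both WT arrays and 31.1% had both AAa arrays below both AAA arrays. With these ratios known when the genes were chosen, nothing is read from the places.

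The genes next to AT2G47880 did not share its low signal. In AAA, the 12 nearest expressed genes (6 on each side, AT2G47690 to AT2G48100) had a median of 0.48 for the log2 ratio to WT, and 0 of the 12 was below 0. In AAa, where these genes have 2 copies, the median was −0.05 and 6 of 12 were below 0, with the lowest at −0.30. The adjacent measured gene on one side, AT2G47850, had log2 ratios to WT of 0.30 in AAa and 0.51 in AAA. On the other side, AT2G47890 had 0.88 in AAa and 1.32 in AAA, the highest of the 12 in both. The next genes out were AT2G47830, with 0.13 in AAa (−0.11 to 0.37 with each array left out) and 0.82 in AAA, and AT2G47960, with −0.21 in AAa and 0.52 in AAA. A second CC-type locus beside it, AT2G47870, has no listed probe set.

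Over the whole of Chr.2 beyond AUR2, 645 genes were expressed. Their median log2 ratio to WT was −0.02 in AAa and 0.50 in AAA, at copy numbers of 2 and 3. AT2G47880 was number 2 from the lowest of the 645 in AAA, where 31 genes were below 0, and it lay 1.28 below the median. In AAa it was number 4 from the lowest, 0.95 below the median. Its ratio of AAa to AAA, −0.19, was above the median of −0.54, with 550 of the genes lower. The other expressed CC-type gene of that arm, AT2G30540, was number 377 of the 645 from the lowest in AAA against WT and number 195 in AAa against WT. In AAa against AAA it was number 154, below the lower quartile of −0.74. Its signal was 175 and 188 in AAa, 292 and 320 in AAA, and 193 and 224 in WT. It fell by 0.75 ± 0.18 on the log2 scale in AAa against AAA (limma, adjusted p = 0.00509; 0.06 without AAA replicate 2). The ratio to WT in AAA was 0.55 ± 0.18 (adjusted p = 0.0433). This call was lost without any 1 of the 6 arrays (adjusted p 0.0556 to 0.232) and under each other scaling of the arrays (0.0836 to 0.0873), and without the filter on dim genes (0.091).

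**Figure D2:**
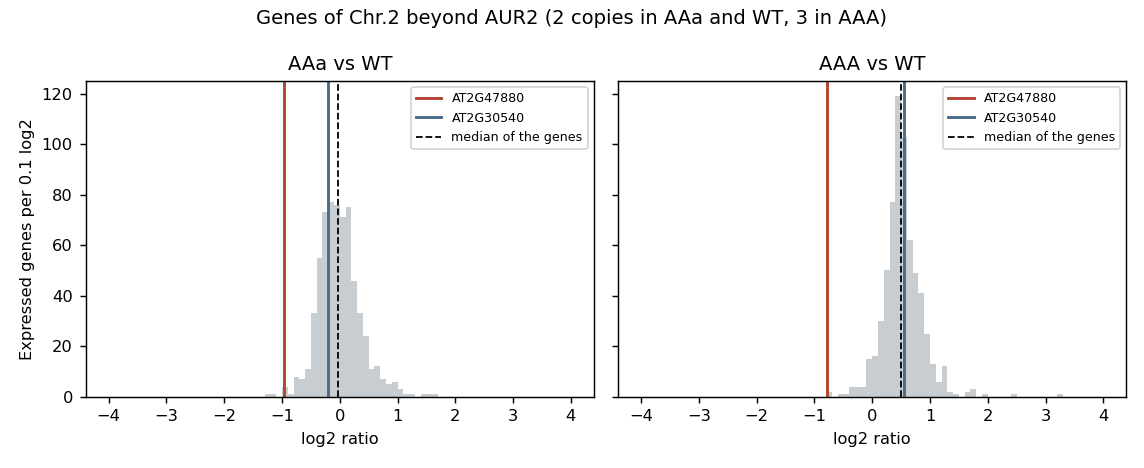
Histograms of the log2 ratio to WT (x axis) of the 645 expressed genes of Chr.2 beyond AUR2 in AAa (left) and AAA (right), with the number of genes per bin on the y axis, the median as a dashed line, and AT2G47880 and AT2G30540 as coloured lines. AT2G47880 lies at −0.97 in AAa and −0.78 in AAA, on the low side of the genes in both, and AT2G30540 lies at −0.20 in AAa and 0.55 in AAA.

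The tandem run on Chr.4 holds 5 CC-type loci, of which AT4G15670 has no listed probe set. The other members of the run, AT4G15660 and AT4G15700, were not among the chosen genes, and both were lower in AAa than in WT. AT4G15660 had signals of 125 and 111 in AAa, 203 and 240.4 in AAA, and 302 and 262 in WT. It fell by 1.26 ± 0.19 on the log2 scale in AAa against WT (limma, adjusted p = 0.000251) and by 0.91 ± 0.19 in AAa against AAA (adjusted p = 0.00244), whereas the ratio of AAA to WT was −0.35 ± 0.19 (adjusted p = 0.264). AT4G15700 had signals of 192 and 161 in AAa, 188 and 257 in AAA, and 404 and 359 in WT. It fell against WT by 1.11 ± 0.19 in AAa (adjusted p = 0.000628) and by 0.79 ± 0.19 in AAA (adjusted p = 0.00891), with overlapping arrays and −0.32 ± 0.19 between AAa and AAA (adjusted p = 0.253). The call in AAA was lost without WT replicate 1 (adjusted p = 0.0719) or AAA replicate 1 (adjusted p = 0.133). The loci of the run are close copies of each other, and although each probe set is listed for a single locus, hybridisation of one transcript to the probes of another was not tested.

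Genes on either side of the run did not have such low ratios. The 12 expressed genes around it, 6 on each side from AT4G15500 to AT4G15830, had a median of 0.18 for the log2 ratio to WT in AAa and 0.16 in AAA. The lowest of the 12, AT4G15830, was at −0.72 in AAa and −0.37 in AAA, above all 4 genes of the run in AAa and above 3 of the 4 in AAA. The nearest measured gene on one side, AT4G15640, had 0.17 in AAa and 0.27 in AAA. AT4G15770 on the other side had 0.33 in AAa and 0.27 in AAA.

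**Figure D3:**
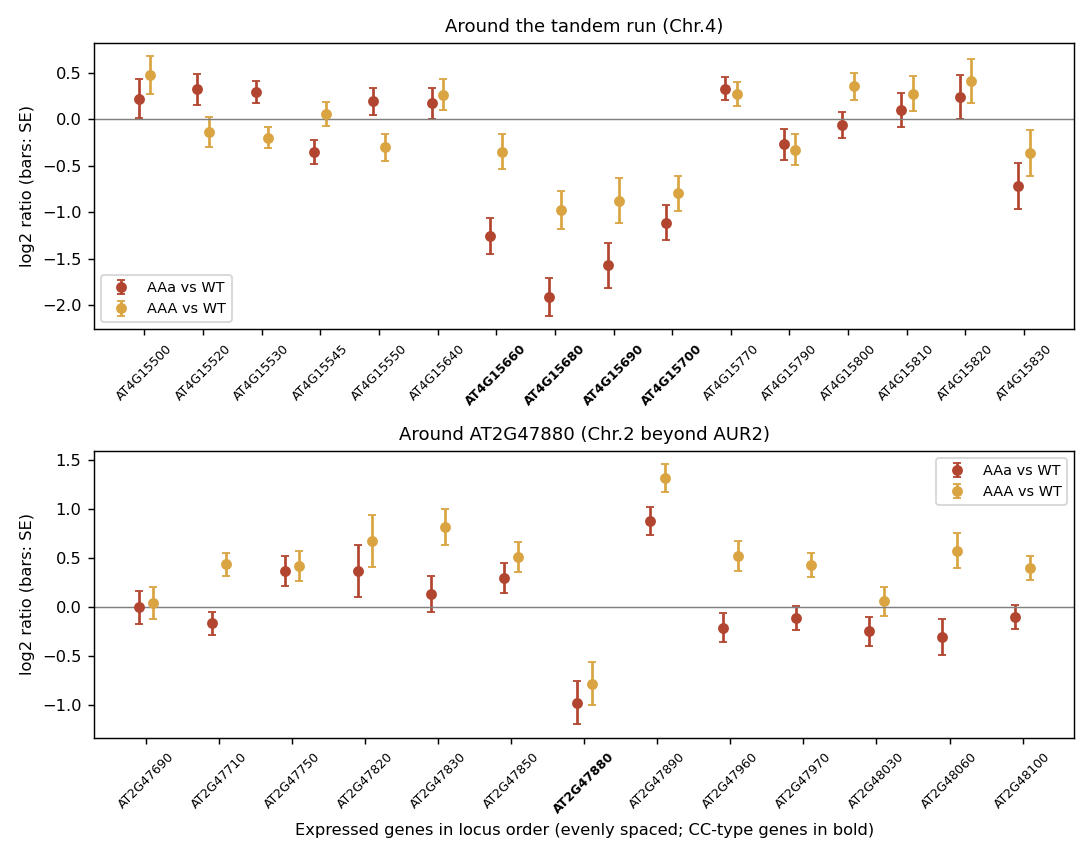
log2 ratio to WT (y axis) with the SE of the fit in AAa and AAA for expressed genes in locus order (x axis, evenly spaced) around the tandem run on Chr.4 (top) and around AT2G47880 (bottom), with CC-type loci in bold. The 4 genes of the run lie at −1.11 or lower in AAa between neighbours at −0.72 or higher, and AT2G47880 lies below 0 in both trisomics next to AT2G47890 at 0.88 and 1.32.

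The other 10 expressed genes of the CC class were tested in all 3 comparisons. In AAa against WT, 5 fell, 2 rose and 3 did not pass, whereas 6.82% of all expressed genes fell and 14.2% rose. With the 9 that have 2 copies throughout, the count was 5 lower and 2 higher, beside 7.81% and 6.91% of all expressed 2-copy genes. In AAA against WT, 2 fell and 1 rose, beside 3.04% and 11.3% of all expressed genes, and 7 did not pass. Of the 9 with 2 copies, 2 fell and 0 rose in AAA, beside 3.49% and 3.82% of the 2-copy genes. The count of calls in AAA was 1 when either WT array or either AAA array was left out, and 2 when an AAa array was left out. In AAa against AAA, 4 fell and 2 rose, beside 11.7% and 10.7%. The 9 with 2 copies gave 3 lower and 2 higher, beside 7.43% and 7.15%. The median log2 ratio of the 10 was −0.34 for AAa against WT, −0.11 for AAA against WT and −0.44 for AAa against AAA. These 10 include AT4G15660 and AT4G15700 of the tandem run. For the 8 outside the run, 3 fell and 2 rose in AAa against WT (median −0.23). In AAA against WT 1 fell and 1 rose (median 0.08), and in AAa against AAA 3 fell and 2 rose (median −0.37). Over all expressed genes the median was 0.05 for AAa and 0.04 for AAA against WT, and −0.0043 for AAa against AAA.

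Outside the tandem run, AT1G06830 was the class member nearest to it in pattern. Its signal was 549 and 646 in AAa, 1093 and 1094 in AAA, and 1443 and 1358 in WT, and no groups overlapped. The signal fell by 1.23 ± 0.13 on the log2 scale in AAa against WT (limma, adjusted p = 8.74e-06) and by 0.88 ± 0.13 in AAa against AAA (adjusted p = 0.000135). For AAA against WT the ratio was −0.36 ± 0.13 (adjusted p = 0.0701), which passed under the other scalings of the arrays (adjusted p 0.0268 to 0.0375). AT5G18600 fell by 0.44 ± 0.11 in AAa against WT (adjusted p = 0.00881; 0.064 without AAa replicate 1 and 0.0525 without the intensity trend), with signals of 3851 and 4028 in AAa, 4366 and 4634 in AAA, and 5312 and 5373 in WT. In AAA its ratio to WT was −0.25 ± 0.11 (adjusted p = 0.149; 0.0458 without centring). All 4 trisomic arrays of both genes were below the WT arrays.

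AT1G03020 differed in that AAA was not the middle group. It had signals of 114.2 and 114.5 in AAa, 208 and 258 in AAA, and 181 and 169 in WT. AAa was lower than AAA by 1.02 ± 0.20 on the log2 scale (limma, adjusted p = 0.00147) and lower than WT by 0.61 ± 0.20 (adjusted p = 0.0369). The second call was lost when any array except AAA replicate 1 was left out (adjusted p 0.0515 to 0.132) and without the filter on dim genes (0.0926). The ratio of AAA to WT was 0.40 ± 0.20 (adjusted p = 0.207).

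On Chr.3 beyond AT3G20040, AT3G62930, AT3G62950 and AT3G62960 form another group of nearby CC-type loci at 2 copies. AT3G62950 had signals of 476 and 505 in AAa, 383 and 366 in AAA, and 527 and 642 in WT. It fell by 0.64 ± 0.14 on the log2 scale in AAA against WT (limma, adjusted p = 0.00662), but not past the threshold without WT replicate 2 (0.0773) or AAA replicate 2 (0.0656). In AAa the ratio to WT was −0.25 ± 0.14 (adjusted p = 0.254), so here AAA and not AAa was the lowest group. AT3G62930 had signals of 116 and 128 in AAa, 178 and 179.6 in AAA, and 171 and 115 in WT, and passed in none of the comparisons (adjusted p = 0.573, 0.366 and 0.0923 for AAa against WT, AAA against WT and AAa against AAA).

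Against this direction, 2 members of the class rose in AAa. GRX480 (AT1G28480, also ROXY19) is induced by salicylic acid, binds TGA factors and represses jasmonate-responsive defence genes. Its signal was 456 and 439 in AAa, 153 and 179.7 in AAA, and 187 and 140.1 in WT. GRX480 in AAa exceeded WT 2.76-fold, a log2 ratio of 1.47 ± 0.19 (limma, adjusted p = 6.59e-05), and exceeded AAA 2.70-fold (1.43 ± 0.19, adjusted p = 6.17e-05). AAA and WT overlapped for this gene, with a log2 ratio of 0.03 ± 0.19 (adjusted p = 0.941), whose sign turned under each other scaling of the arrays (−0.051 to −0.035). AT4G33040 had signals of 260.1 and 292 in AAa, 141 and 139.5 in AAA, and 138 and 120.4 in WT. It rose by 1.10 ± 0.19 in AAa against WT (adjusted p = 0.00086) and by 0.97 ± 0.19 against AAA (adjusted p = 0.00176), with 0.13 ± 0.19 in AAA against WT (adjusted p = 0.748).

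**Figure D4:**
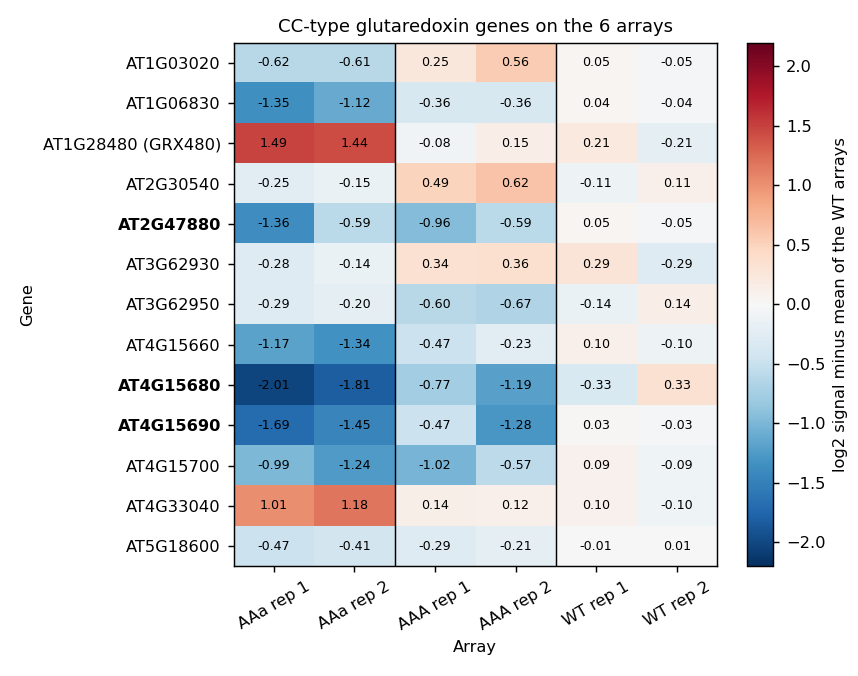
log2 signal of the 13 expressed CC-type genes (rows, the 3 chosen genes in bold) on the 6 arrays (columns), each minus the mean of its WT arrays; blue is lower and red is higher than WT. The tandem run and AT1G06830 are blue on both AAa arrays, while GRX480 and AT4G33040 are red on both AAa arrays and pale on the AAA arrays.

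**Figure D5:**
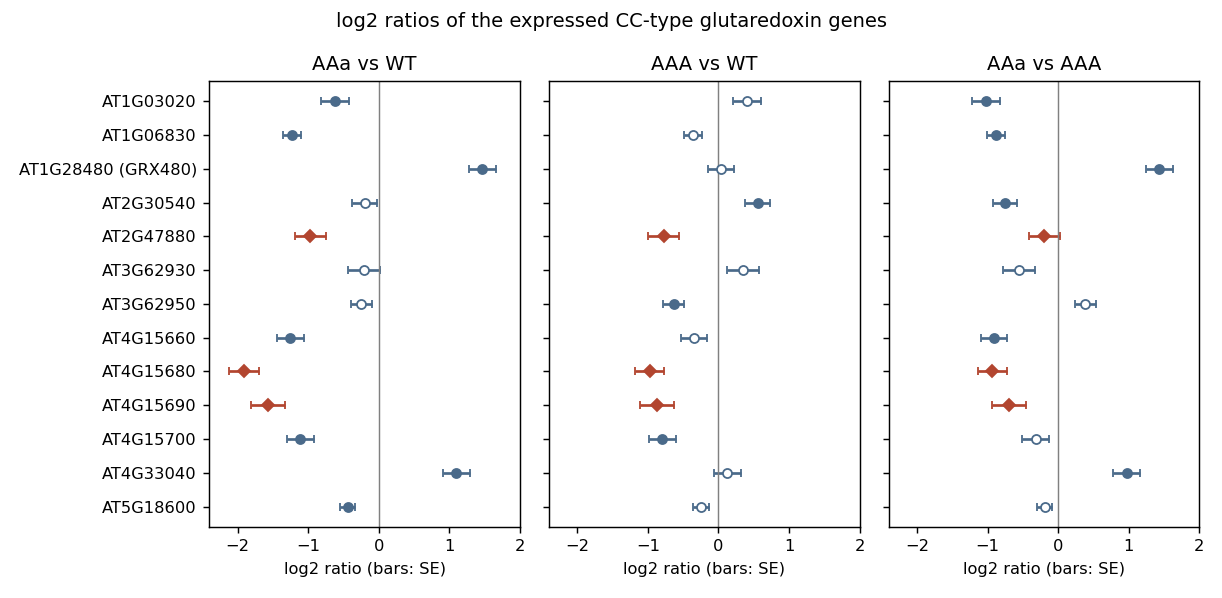
log2 ratios with the SE of the fit (x axis) of the 13 expressed CC-type genes (y axis) for AAa against WT, AAA against WT and AAa against AAA. Diamonds are the 3 chosen genes, without a test; filled circles passed an adjusted p of 0.05 and open circles did not. In AAa against WT 5 filled circles lie left of 0 and 2 right of it.

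The 4 CC-type genes that were too dim to test were ROXY1, ROXY2, AT5G11930 and AT3G62960. ROXY1 lies on Chr.3 before AT3G20040, with 3 copies in AAa and 2 in AAA and WT. ROXY1 and ROXY2 control petal and anther development, and their signals in leaves were 55.8 and 11.0 in AAa, 36.2 and 33.5 in AAA, and 56.8 and 33.1 in WT for ROXY1. For ROXY2 they were 63.0 and 52.2 in AAa, 11.1 and 36.8 in AAA, and 32.4 and 13.5 in WT. AT5G11930 had signals of 131 and 87.7 in AAa, 63.1 and 56.4 in AAA, and 55.0 and 73.6 in WT. AT3G62960 had 69.3 and 37.6 in AAa, 10.4 and 26.3 in AAA, and 60.0 and 40.8 in WT. The mean log2 signal of each of these 4 genes over the 6 arrays was below the limit of 6.28 (a signal of 77.8) used to call a gene expressed, although both AAa arrays of AT5G11930 were above it. The arrays of a group differed by up to 2.35 on the log2 scale for ROXY1. The 4 loci without a listed probe set were AT4G15670, AT3G21460, AT2G47870 and AT1G03850 (GRXS13).

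The expressed genes whose log2 profile over the 6 arrays lay nearest to that of each chosen gene were found by Euclidean distance, with the mean of every gene set to 0. For AT4G15680 the nearest of 7243 genes was AT4G28780 (distance 0.48), with mean signals of 290.3 in AAa, 599.8 in AAA and 1187 in WT. AT5G23480 (0.50) followed, then AT4G15690 (0.67), AT5G12050 (0.79) and CML41 (0.80), a calmodulin-like protein. For AT4G15690 the nearest were AT5G23480 (0.57), AT5G12050 (0.59), GSTU18 (0.64), a glutathione S-transferase of the tau class, AT4G15680 (0.67) and CML41 (0.67). The nearest of all to AT2G47880 was AT1G72810 (0.38), followed by IAA29 (0.39), an auxin-inducible Aux/IAA repressor, HVA22C (0.46), AT3G47120 (0.46) and AT5G20885 (0.49). None of these 5 is a CC-type gene or lies on Chr.2. IAA29 had mean signals of 176 in AAa, 191 in AAA and 351 in WT.

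Within the class, the members of the tandem pair thus lay at places 3 and 4 in each other's order, and AT1G06830 came number 7 for AT4G15680 and number 12 for AT4G15690. AT4G15660 came 22 and 35, and AT4G15700 came 51 and 72. AT2G47880 was number 88 for AT4G15680 and number 103 for AT4G15690. The reverse places were far lower, as AT4G15690 was number 1530 and AT4G15680 number 3411 in the order of AT2G47880. The class member nearest to AT2G47880 was AT4G15700, number 68, followed by AT5G18600 at 162 and AT1G06830 at 176. GRX480 and AT4G33040 were at the far end for all 3 genes, with places between 7028 and 7208 of 7243. These orders rest on 6 arrays and describe the profiles only.

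The other glutaredoxin classes and related genes were covered unevenly. Of 6 CPYC-type genes, 5 had a listed probe set. All 5 were expressed, and 1 rose in AAa and in AAA against WT, where 14.2% and 11.3% of all expressed genes rose. This was AT2G20270, on the part of Chr.2 with 3 copies in both trisomics, with signals of 2290.5 and 2174 in AAa, 1970 and 1802 in AAA, and 1438 and 1177 in WT. It rose against WT by 0.78 ± 0.12 on the log2 scale in AAa (limma, adjusted p = 0.000395) and by 0.53 ± 0.12 in AAA (adjusted p = 0.00769). The call in AAA was lost without WT replicate 2 (adjusted p = 0.0877), AAA replicate 1 (0.094) or the intensity trend (0.0551). The median of the 5 was −0.02 for AAa and 0.02 for AAA against WT. None of 4 CGFS-type genes and none of 10 TGA factors had a listed probe set. Among 14 further genes with a glutaredoxin domain, a list added after the data had been seen, 9 had a listed probe set, 6 of these were expressed and only AT2G41330 passed. It lies on Chr.2 beyond AUR2 and had signals of 96.6 and 104 in AAa, 191 and 187 in AAA, and 101 and 117 in WT. Of all expressed genes, 11.3% rose in AAA against WT and 11.7% fell in AAa against AAA. AT2G41330 rose by 0.80 ± 0.22 in AAA against WT (limma, adjusted p = 0.0208) and fell by 0.91 ± 0.22 in AAa against AAA (adjusted p = 0.00648). The first call was lost without the filter on dim genes (0.0739), without WT replicate 1 (0.098), AAA replicate 1 (0.128) or AAA replicate 2 (0.111), and the second without AAA replicate 1 (0.06) or AAa replicate 1 (0.0513).

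Of 12 genes of the glutathione and thioredoxin system 3 had a listed probe set. All 3 were expressed, and NTRC, the plastid thioredoxin reductase with its own thioredoxin domain, was the only one that passed. NTRC also lies on Chr.2 beyond AUR2, with signals of 3356 and 3325 in AAa, 5542 and 5408 in AAA, and 3699 and 4449 in WT. NTRC fell by 0.71 ± 0.12 on the log2 scale in AAa against AAA (limma, adjusted p = 0.000399), as did 11.7% of all expressed genes. It rose by 0.43 ± 0.12 in AAA against WT (adjusted p = 0.0187), as did 11.3% of all expressed genes. The second call was lost without WT replicate 1 (0.163), AAA replicate 1 (0.121) or AAA replicate 2 (0.0941), and also without centring (0.0519), centred on all expressed genes (0.0569), without the filter on dim genes (0.0725) and without the intensity trend (0.0928). NTRC in AAa had a ratio to WT of −0.28 ± 0.12 (adjusted p = 0.102; 0.0423 without WT replicate 1 and 0.0317 when centred on all expressed genes). Of 11 CEP receptor and type-A response regulator genes, 2 had a listed probe set, and these were expressed. Both are type-A regulators, which cytokinin induces and which repress its signalling, and 0 passed in limma and 0 had an unadjusted p below 0.05 in any comparison. ARR15 had log2 ratios to WT of 0.46 ± 0.25 in AAa and 0.14 ± 0.25 in AAA, and RR16 had −0.36 ± 0.18 in AAa and −0.02 ± 0.18 in AAA. Of 18 genes for nitrate uptake, assimilation and response, 1 had a listed probe set and it was too dim to test.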

How the data were processed

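Per the labels, each ATH1 array was turned by the authors into linear probe set intensity values with GCOS (version not given in the sources used here). The deposited intensity values had a mean of 500.0 to 500.1 on each array after 2% was trimmed at both ends. The study's own GC-RMA and vsn values were left aside.

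The 246 to 489 signals below 1 on each array were set to 1 before log2. Arrays were then centred on the median of their expressed genes outside the triplicated regions. Of 22746 probe sets left after removal of 64 controls, those with a mean log2 signal at or above the 40th percentile (6.28, a signal of 77.8) counted as expressed. Of all 22810 probe sets, 13513 were listed with 1 gene, 503 with several and 8794 with none, and 77 of the first kind matched no locus. The brightest probe set was kept for each of 13286 genes. Locus names and their order came from a RefSeq gene table (assembly TAIR10.1), used for no coordinates, and regions from the breakpoints of the study. Class membership came from general knowledge of the family. Promoter and protein sequences were not analysed here.

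The 6 arrays entered a single limma 3.58.1 fit (under R 4.3.3, with lmFit and trended eBayes; 3 residual and 13.5 prior degrees of freedom), checked on simulated data. Tests were two-sided, with Benjamini-Hochberg adjustment over all 7244 expressed genes, with 0.05 as the threshold for "rose" and "fell". The number of arrays limits the precision. The 3 genes, the lists and the rule for naming genes were chosen with earlier results of these data known. The rule took every CC-type gene with a probe set, the members of other lists past the threshold or else the 2 with the smallest p, the 5 nearest profiles, and the 2 expressed neighbours on each side. Alternatives covered scaling, floor, filter, trend, replicate block, the genes adjusted over and each array left out; a lone array was then assumed to vary like the other groups.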

Additional observations from a re-analysis of the deposited data

How the results depend on the processing

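The precision is limited by 2 arrays a group. AT4G15680, AT4G15690 and AT2G47880 kept the sign of their ratios to WT under each alternative run. With each array left out in turn, the log2 ratios ranged, for AT4G15680, from −2.24 to −1.58 (AAa against WT), −1.30 to −0.65 (AAA against WT) and −1.14 to −0.72 (AAa against AAA). For AT4G15690 they ranged from −1.69 to −1.45, −1.28 to −0.47 and −1.10 to −0.29 in the same comparisons. For AT2G47880 they ranged from −1.36 to −0.59, −0.96 to −0.59 and −0.58 to 0.19, so that the sign of AAa against AAA turned.

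Over all expressed genes, 1523 were called in AAa against WT, 1042 in AAA against WT and 1622 in AAa against AAA. With each array left out these counts were 816 to 1350, 520 to 968 and 927 to 1729. Without the filter on dim genes, of 13286 genes 1024 were called in AAa against WT, 683 in AAA against WT and 1156 in AAa against AAA. What lowered these counts was not tested. Of the 10 other CC-type genes, 7 were called in AAa against WT, 3 in AAA against WT and 6 in AAa against AAA, and with each array left out 5 to 7, 1 to 2 and 5 to 7. Adjusted over the 2-copy genes alone, calls among these genes numbered 654 in place of 805, 268 in place of 400 and 611 in place of 797, and AT1G03020 was lost in AAa against WT (adjusted p = 0.054).

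Among the tested CC-type genes and the named genes of other lists, signs turned for 5 ratios that had not passed. The ratio of AAA to WT for GRX480 was −0.049 without centring, −0.051 when all expressed genes set the centre and −0.035 after quantile normalization, and for RCA it was −0.038, −0.040 and −0.16. With an array left out, that ratio ranged from −0.18 to 0.24 for GRX480, −0.11 to 0.20 for RCA, −0.15 to 0.11 for RR16 and −0.042 to 0.31 for ARR15, and the ratio of AAa to WT ranged from −0.49 to 0.078 for AT3G62930. The cause was not tested. Under the other scalings, the median log2 ratio of the 2-copy genes was between −0.09 and 0.03 in the comparisons. With the main scaling it was between −0.0096 and −0.0019.

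Same-numbered arrays did not deviate together (correlations across genes of −0.05 to 0.02), so the numbers were not taken as pairs. With the replicate block 1484 genes were called in AAa against WT, 1021 in AAA against WT and 1567 in AAa against AAA, and 7, 3 and 6 of the other CC-type genes.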
